A study of Mus musculus with 12 samples.

Results

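The 10 genes described here act in retinoic acid synthesis, binding and response, and were followed through RNA-seq libraries of mouse spermatogonia. They were taken by symbol from a table of 55385 genes, and all 10 were found there once. The genes are *Rdh10*, *Aldh1a1*, *Aldh1a2*, *Dhrs3*, *Cyp26b1*, *Crabp1*, *Crabp2*, *Rara*, *Rarg* and *Stra8*. The study examined how Polycomb repressive complex 1 (PRC1), which represses genes through chromatin, acts in these germline cells as they differentiate.

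The 12 libraries form 6 groups of 2. WT Aundiff and WT Adiff are undifferentiated and differentiating spermatogonia from untreated C57BL/6 mice of 2 to 3 months, sorted as E-Cadherin+ cells that were CD9high KIT- or CD9medium KIT+. The other groups hold Aundiff from C57BL/6 X FVB/NJ mice: PRC1cKO (Ring1-/-, Rnf2 F/-, Ddx4-Cre) and their littermates PRC1ctrl (Ring1-/-, Rnf2 F/+, Ddx4-Cre), untreated at 2 months or given Win18446. Both PRC1 genotypes thus lack *Ring1* in the whole animal, carry a Cre that is active in the germline, and differ in the second *Rnf2* allele. Win18446 blocks the ALDH1A enzymes that make retinoic acid; it was injected under the skin each day in DMSO (40 µg/µl in 50 µl, about 30 injections from 1 month of age), and cells were sorted 24 h after the last dose. Each library is a pool of sorted cells, so a change in the mixture of cells and a change of RNA within a cell cannot be told apart.

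Retinoic acid is made from vitamin A in separate oxidation steps. RDH10 oxidizes retinol to retinal, DHRS3 reduces retinal back to retinol, and the ALDH1A enzymes turn retinal into retinoic acid, while CYP26B1 breaks retinoic acid down. CRABP1 and CRABP2 bind it in the cytoplasm, and it acts on transcription through the nuclear receptors RARA and RARG, which pair with RXR proteins at repeats of a hexamer close to AGGTCA. In the testis retinoic acid drives Aundiff into differentiation, and *Stra8*, a gene needed for entry into meiosis, is its best known germline target.

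The promoter sequences of *Stra8* and *Crabp1* are shown here because these 2 genes reached the highest TPM of the 10 and both were higher in WT Adiff than in WT Aundiff. Sequences are RefSeq windows on GRCm38.p6 from 250 bases before to 50 bases after the annotated start, 5′ to 3′ on the strand of the gene, and capitals mark AGGTCA on either strand. The *Stra8* window (chr6:34920698-34920997, plus strand) lies within the Gencode gene, which begins at 34920163. The *Crabp1* window (chr9:54764498-54764797, plus strand) spans the Gencode start of the gene.
Stra8: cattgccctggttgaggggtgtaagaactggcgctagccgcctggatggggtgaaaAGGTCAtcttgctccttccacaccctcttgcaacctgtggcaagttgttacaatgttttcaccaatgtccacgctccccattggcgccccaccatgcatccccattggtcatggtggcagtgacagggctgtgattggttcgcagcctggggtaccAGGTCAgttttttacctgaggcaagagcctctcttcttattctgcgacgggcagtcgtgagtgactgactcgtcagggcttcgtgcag
Crabp1: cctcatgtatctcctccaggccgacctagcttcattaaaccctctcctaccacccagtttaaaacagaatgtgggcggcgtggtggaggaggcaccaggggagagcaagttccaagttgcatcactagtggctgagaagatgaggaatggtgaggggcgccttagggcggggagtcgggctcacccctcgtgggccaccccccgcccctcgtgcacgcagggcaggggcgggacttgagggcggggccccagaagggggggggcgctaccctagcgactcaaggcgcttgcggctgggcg

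In the *Stra8* window AGGTCA occurred 2 times on the strand of the gene, at -194 and -38 from the RefSeq start, and the *Crabp1* window held none. At least 1 copy on either strand was present in 16.3% of all 32851 promoter windows of this length, and 2 or more in 1.81%. For 8 of the 10 genes there were 15 windows, and 3 of the 15 had AGGTCA, a count to set beside the 16.3%. These belonged to *Stra8*, *Rara* and *Rarg*, 3 of the 8 genes, and some genes had more than 1 window. When AGTTCA was allowed as well as GGGTCA, and with them the hexamer GGTTCA, none of the 15 windows held a direct repeat spaced by 1, 2 or 5 bases. Such a repeat was present in 0.59% of all windows, a share too small to compare with 15 windows. CpG counts in the 15 windows of these genes ran from 1 and 3 for *Aldh1a1* to 50 for *Aldh1a2*, with 10 for *Stra8*, 17 for *Crabp1* and a median of 7 over all windows. These letters describe the windows and no binding was measured here.

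The values are TPM, in which a gene is a length-corrected share of the transcripts of its library. Read depth is therefore unknown, and error rests on the 2 libraries of each group. All adjusted p are from limma on log2(TPM + 1), adjusted across the genes tested (Benjamini-Hochberg), and a gene was called at an adjusted p under 0.05 with an absolute log2 fold change above 1. The median log2 fold change of all genes tested was not 0: it was 0.15 in WT, 0.22 at 2 mo, -0.19 after Win18446 and 0.30 for PRC1ctrl after Win18446 against WT Aundiff. *Ring1* TPM was 0.03 to 0.25 in the 8 libraries of PRC1 mice and 8.61 to 19.9 in WT. *Rnf2* TPM, in contrast, was 28.3 and 47.6 in PRC1ctrl and 56.7 and 67.5 in PRC1cKO at 2 mo, and 78.1 and 67.2 against 86.2 and 93.1 after Win18446. A gene-level TPM also counts exons outside the deleted part, so it does not show whether *Rnf2* was deleted. Groups are therefore named by the labels of their libraries, as libraries labelled PRC1ctrl or PRC1cKO. The 2 mo libraries were made with a low-input kit (Smart-Seq2) and the other 8 with TruSeq, so kit and Win18446 cannot be told apart in the PRC1 mice.

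The summed TPM of 8 markers of undifferentiated spermatogonia was 405 to 472 in WT Aundiff, 52.0 to 57.2 in WT Adiff, 25.0 to 60.6 in the 2 mo libraries and 243 to 410 after Win18446. For 5 markers of differentiating spermatogonia it was 255 to 308, 697 to 769, 30.8 to 188 and 400 to 492 in the same order. *Sohlh1* made up most of this sum in WT Aundiff (231 and 277 TPM) and after Win18446 (361 to 398 TPM), and was 200 and 235 TPM in WT Adiff. *Kit*, which was part of the sort gate, gave 6.38 and 6.96 TPM of the sum in WT Aundiff and 247 and 245 TPM in WT Adiff. Of this list only *Dmrtb1* was called between PRC1ctrl after Win18446 and WT Aundiff, and it was lower (1.99 and 2.68 against 6.25 and 8.26 TPM). Both sums were lower in the 2 mo libraries than in WT Aundiff, with *Zbtb16* at 4.93 to 14.2 TPM against 131 and 167. Within the second list *Sohlh1* and *Dmrtb1* were lower at 2 mo and *Tcea3* was higher. *Kit* and *Esx1* were higher in both libraries only under the PRC1cKO label. Since the 2 mo libraries came from another kit, the sums do not check their Aundiff label. Spermatid markers (5 genes) summed to 520 to 836 in WT and 746 to 1735 in PRC1ctrl at 2 mo, but 49.2 to 57.3 in PRC1cKO. After Win18446 they summed to 116 to 127 and 16.9 to 17.1, with *Prm2* and *Acrv1* at 0 in both PRC1cKO libraries. Spermatocyte markers (5 genes) summed to 109 to 154 in WT, 558 to 765 at 2 mo and 152 to 248 after Win18446. The higher 2 mo sum came mostly from *Sycp1*, *Sycp3* and *Hormad1*, while *Piwil1* was 0.27 to 1.36 TPM at 2 mo against 9.61 to 10.4 TPM in WT. *Ldhc* was 26.7 and 105 TPM in PRC1ctrl at 2 mo but 1.67 and 0.90 TPM in PRC1cKO.

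**Figure D1:**
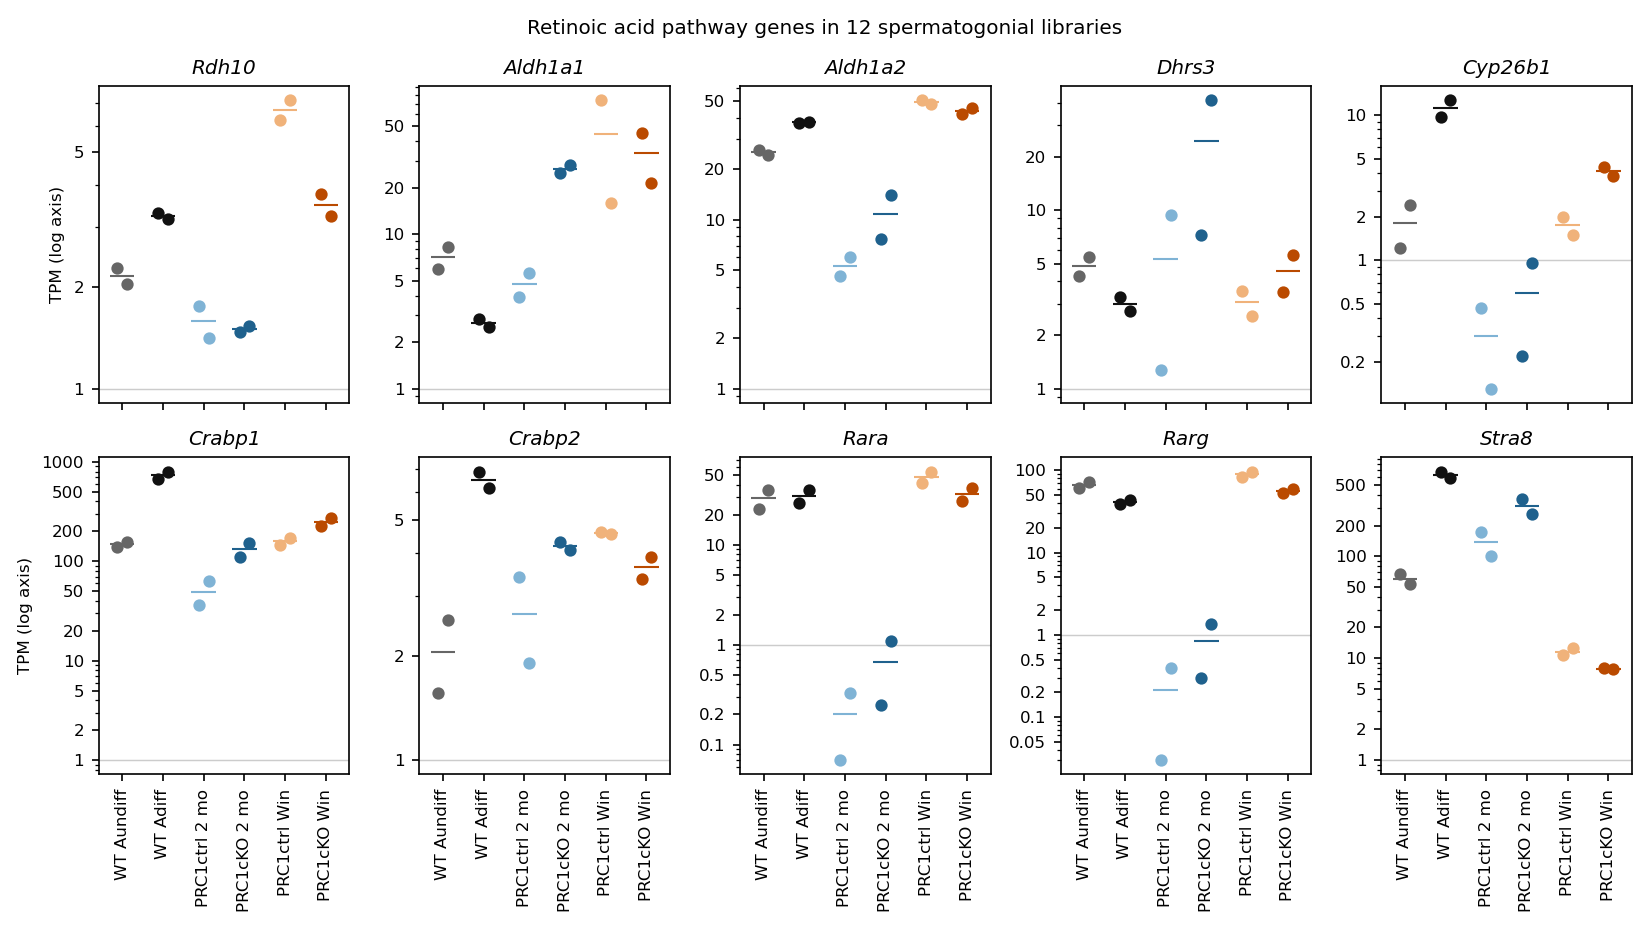
TPM of the 10 genes on a log axis in each of the 12 libraries, with the 6 groups along the horizontal axis, a point for each library, a bar at the group mean and a grey line at 1 TPM. Crabp1 and Stra8 are highest in WT Adiff, at 581 TPM or more, and Rara and Rarg lie near or below 1 TPM in the 2 mo libraries alone.

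During WT differentiation the response gene, the retinoic acid binding proteins and the degrading enzyme rose together. Of the synthesis enzymes *Aldh1a1* fell, while the more abundant *Aldh1a2* rose by less than the fold threshold. Of the 10 genes, 4 were called higher in Adiff (*Stra8*, *Crabp1*, *Cyp26b1* and *Crabp2*) and 1 lower (*Aldh1a1*). Among the 15470 genes tested 11.1% were called higher and 9.24% lower. The groups did not overlap for 6 genes that were higher and 3 that were lower, against 43.4% and 28.7% of all genes tested. The median log2 fold change of the 10 genes was 0.50.

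*Stra8* (ENSMUSG00000029848, chromosome 6 from 34920163 to 34939344) was 66.2 and 53.2 TPM in WT Aundiff and 675 and 581 TPM in WT Adiff. Both Adiff libraries lay far above both Aundiff libraries, 628 ± 66.0 against 59.7 ± 9.21 TPM (SD, n = 2), a log2 fold change of 3.38 ± 0.15 (SE; adjusted p = 0.000221). *Crabp1* (ENSMUSG00000032291, chromosome 9 from 54764748 to 54773110) rose from 140.5 and 157 TPM to 679 and 795 TPM, a log2 fold change of 2.30 ± 0.13 (adjusted p = 0.000561). Both were also called without any single library.

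*Cyp26b1* (ENSMUSG00000063415, chromosome 6 from 84571414 to 84593908) was low in Aundiff, at 1.22 and 2.42 TPM, and reached 9.73 and 12.7 TPM in Adiff. Its log2 fold change was 2.14 ± 0.30 (adjusted p = 0.00392), and it was called without any single library too. *Crabp2* (ENSMUSG00000004885, chromosome 3 from 87948666 to 87953376) went from 1.57 and 2.56 TPM to 6.89 and 6.19 TPM. This log2 fold change of 1.32 ± 0.27 (adjusted p = 0.0124) was 1.08 with an adjusted p of 0.0821 without WT Aundiff replicate 1. *Crabp1* remained the main form in every library of both populations, with a ratio of *Crabp1* to *Crabp2* TPM of 89.5 and 61.3 in Aundiff and 98.5 and 128 in Adiff.

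The retinal oxidizing enzymes moved apart. *Aldh1a1* (ENSMUSG00000053279, chromosome 19 from 20492715 to 20643465) was 5.93 and 8.31 TPM in Aundiff and 2.82 and 2.50 TPM in Adiff, a log2 fold change of -1.14 ± 0.26 (adjusted p = 0.0171). The call rested on both Aundiff libraries, since the adjusted p was 0.0580 without replicate 1 and 0.118 without replicate 2. *Aldh1a2* (ENSMUSG00000013584, chromosome 9 from 71215789 to 71296243) was 26.0 and 24.1 TPM in Aundiff and 37.5 and 38.0 TPM in Adiff. Its log2 fold change of 0.57 ± 0.15 passed the test (adjusted p = 0.0255) without reaching the fold threshold. *Aldh1a2* did not pass with no filter (adjusted p = 0.0589), after median-of-ratios scaling (0.40, adjusted p = 0.0780) or over all 12 libraries (adjusted p = 0.136). It passed with a pseudocount of 0.1, a mean of at least 5 TPM, the replicate block and the GC correction. The ratio of *Aldh1a2* to *Aldh1a1* TPM was 4.38 and 2.90 in Aundiff and 13.3 and 15.2 in Adiff. Summed TPM of 10 Sertoli cell markers was 56.4 to 63.2 in Aundiff and 34.9 to 36.6 in Adiff. The sums overlapped for Leydig cell markers (21.0 and 41.5 against 10.4 and 41.0 TPM) and for macrophage markers (9.71 and 11.4 against 3.73 and 12.1 TPM). They also overlapped for peritubular myoid markers (5.96 and 44.1 against 7.78 and 15.6 TPM). The part of these cells in the *Aldh1a1* difference was not tested.

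*Rarg* (ENSMUSG00000001288, chromosome 15 from 102234938 to 102257517) was the more abundant receptor of the pair, at 61.4 and 71.8 TPM in Aundiff and 39.4 and 44.0 TPM in Adiff. It fell by 0.66 on the log2 scale (SE 0.15; adjusted p = 0.0178), below the fold threshold. *Rara* (ENSMUSG00000037992, chromosome 11 from 98927818 to 98974942) was 22.9 and 35.6 TPM in Aundiff and 26.1 and 35.5 TPM in Adiff, so the groups overlapped (adjusted p = 0.812). The sign of its small log2 difference (0.09) depended on the scaling. The ratio of *Rarg* to *Rara* TPM was 2.68 and 2.02 in Aundiff and 1.51 and 1.24 in Adiff. *Rdh10* (ENSMUSG00000025921, chromosome 1 from 16105774 to 16133734) was 2.27 and 2.04 TPM in Aundiff and 3.30 and 3.18 TPM in Adiff, and *Dhrs3* (ENSMUSG00000066026, chromosome 4 from 144892827 to 144928209) was 4.26 and 5.49 TPM and 3.27 and 2.72 TPM. Neither passed the test (adjusted p = 0.213 and 0.129).

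**Figure D2:**
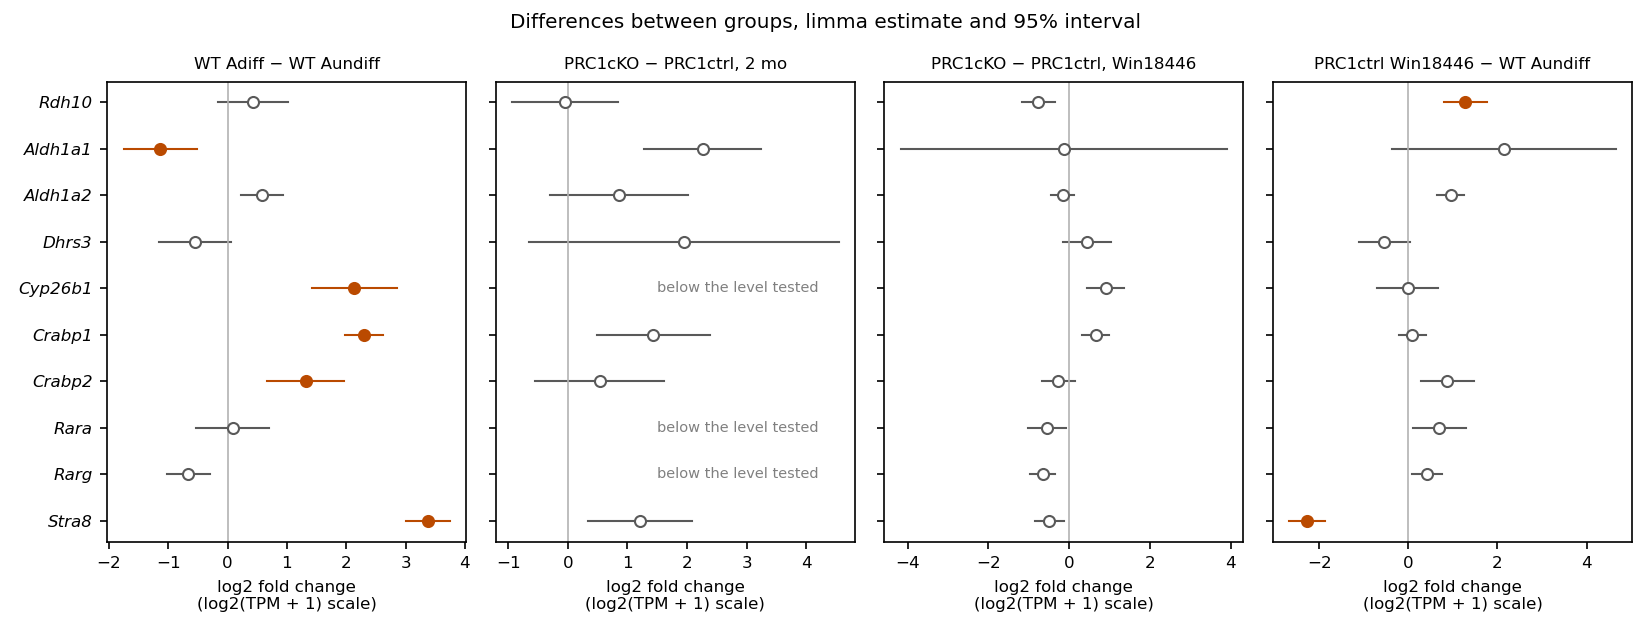
Log2 fold changes of the 10 genes on the log2(TPM + 1) scale in 4 comparisons, with limma estimates as points and 95% confidence intervals as lines; filled points are called genes. Calls are seen in the WT comparison (5 genes) and in PRC1ctrl after Win18446 against WT Aundiff (Rdh10 and Stra8), and in neither comparison of the PRC1 labels.

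The nuclear receptors were almost absent from the 2 mo libraries, which also stood apart in mitochondrial genes (12.5 to 16.7% of TPM against 4.28 to 6.69%) and in genes with at least 1 TPM (12422 to 13986 against 14796 to 16599). *Rara* was 0.07 and 0.33 TPM in libraries labelled PRC1ctrl and 0.25 and 1.09 TPM in those labelled PRC1cKO. *Rarg* was 0.03 and 0.40 TPM and 0.30 and 1.36 TPM. The lowest values in the 8 TruSeq libraries were 22.9 TPM for *Rara* and 39.4 TPM for *Rarg*. Their partners did likewise: *Rxra* was 0.98 to 2.33 TPM at 2 mo and 48.9 to 80.5 TPM elsewhere, and *Rxrb* was 1.29 to 3.27 TPM and 38.4 to 96.1 TPM. Of the 5083 genes that had at least 20 TPM in all 8 TruSeq libraries, 176 (3.46%) stayed under 2 TPM in all 4 Smart-Seq2 libraries.

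This gap moved with the GC content of the transcripts. Among 9023 genes with a mean of at least 10 TPM over the TruSeq libraries, the median log2 difference of Smart-Seq2 from TruSeq libraries was 0.42 for genes with under 42% GC, -1.03 for 46 to 50%, -2.65 for 54 to 58% and -3.44 above 58%. The longest transcripts of *Rara* and *Rarg* have 59.2% and 58.8% GC, and their log2 differences were -4.65 and -5.41. Only 3.3% of the 9023 genes lay at or below the value of *Rara* and 0.9% at or below that of *Rarg*. *Crabp1* (57.4% GC) and *Cyp26b1* (56.7%) lay at -1.82 and -1.98. *Stra8* (50.9%) and *Dhrs3* (52.4%) had higher means in the Smart-Seq2 libraries, at 0.35 and 1.70, but the ranges of the kits overlapped. *Stra8* was 101 to 363 TPM in Smart-Seq2 and 7.90 to 675 TPM in TruSeq libraries, and *Dhrs3* was 1.28 to 41.3 TPM and 2.57 to 5.65 TPM. Kit, cell number, Win18446 and strain differ together between these libraries and cannot be told apart, so the 2 mo libraries were tested only against each other and in the interaction.

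**Figure D3:**
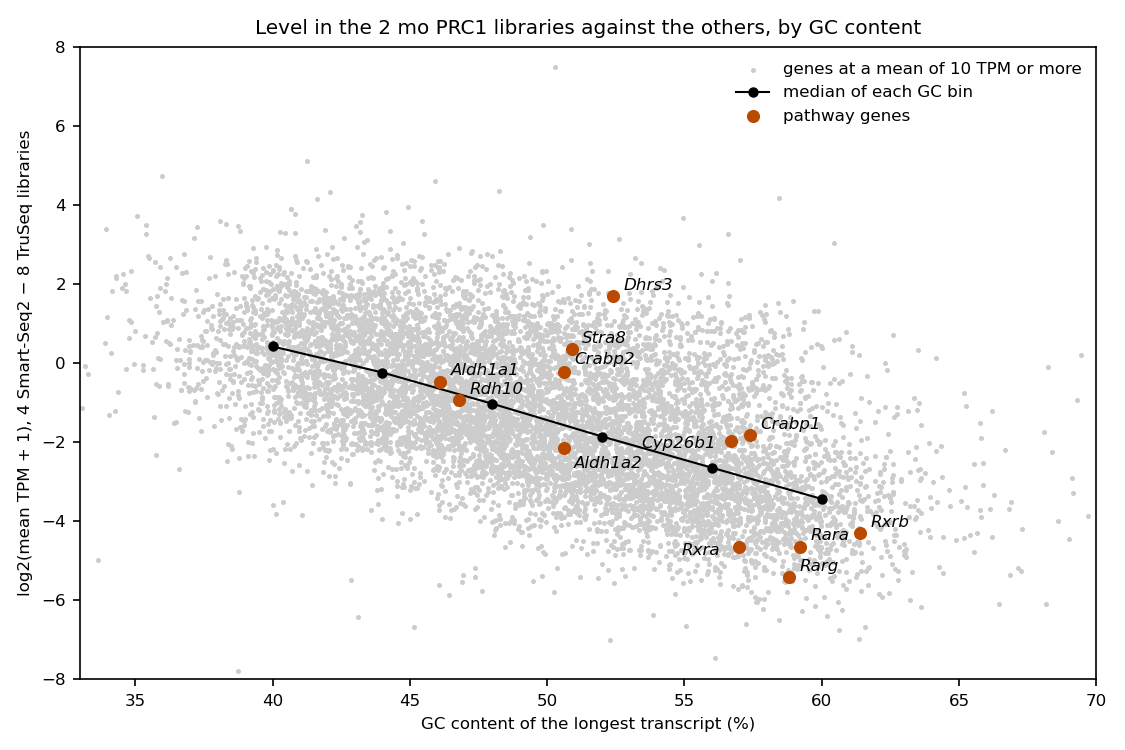
Difference in log2(mean TPM + 1) between the 4 Smart-Seq2 libraries (2 mo) and the 8 TruSeq libraries against the GC content (%) of the longest transcript of each gene; grey points are genes with a mean of at least 10 TPM over the TruSeq libraries, black points the medians of 6 GC bins and orange points the 10 genes with Rxra and Rxrb. The 4 receptors lie at -4.31 or lower, below the medians of their bins, and Dhrs3 and Stra8 lie above 0.

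At 2 mo, *Aldh1a1*, *Crabp1*, *Stra8*, *Aldh1a2* and *Crabp2* were higher in both libraries labelled PRC1cKO than in either labelled PRC1ctrl (5 genes), but none was called. Only 7 of the 10 genes reached the level tested, *Cyp26b1*, *Rara* and *Rarg* being too low. Among all 13953 genes tested 0.222% were called higher and 1.94% lower, and 27.5% were higher without overlap. No limma call was made among the 7 genes, and 3 of them had an unadjusted p under 0.05, as did 14.2% of all genes. Fitting the replicate number as a block changed these calls, as given in the last section. The labels do not say that the numbers pair libraries.

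*Aldh1a1* was 3.94 and 5.63 TPM under the PRC1ctrl label and 25.0 and 27.9 TPM under the PRC1cKO label. The PRC1cKO libraries agreed closely and stood well apart, with a log2 fold change of 2.26 ± 0.39 (adjusted p = 0.0599). In a single model over all 12 libraries the adjusted p was 0.0321. That model pools the spread of all groups, and the median SE of all genes tested was 0.42 at 2 mo. It was 0.22 in WT and 0.17 after Win18446, so smaller p-values from that model rest partly on the tighter TruSeq libraries. *Crabp1* was 35.9 and 63.1 TPM against 110.5 and 154 TPM, a log2 fold change of 1.43 ± 0.38 (adjusted p = 0.153, and 0.00690 over all 12 libraries). *Stra8* was 174 and 101 TPM against 363 and 262 TPM, a log2 fold change of 1.22 ± 0.35 (adjusted p = 0.187, and 0.0168 over all 12 libraries). In all 4 libraries the level of *Stra8* stood between those of WT Aundiff and WT Adiff, which came from the other kit.

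*Aldh1a2* was 4.62 and 5.98 TPM against 7.65 and 14.0 TPM (log2 fold change 0.86 ± 0.46, adjusted p = 0.490). *Crabp2* was 3.40 and 1.92 TPM against 4.31 and 4.07 TPM (0.53 ± 0.43, adjusted p = 0.637). *Dhrs3*, the retinal reductase, had a wide spread within groups, from 1.28 to 9.40 TPM under PRC1ctrl and from 7.30 to 41.3 TPM under PRC1cKO, so the groups overlapped. At each replicate number it was higher under PRC1cKO. *Rdh10* was 1.76 and 1.41 TPM against 1.47 and 1.53 TPM. *Cyp26b1* stayed below 1 TPM, at 0.47 and 0.13 against 0.22 and 0.96.

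Summed Leydig cell and macrophage markers were also higher in both PRC1cKO libraries, while the sums for other somatic cells overlapped. The 6 Leydig cell markers summed to 1.04 and 1.21 TPM under PRC1ctrl and to 21.0 and 48.0 TPM under PRC1cKO, and 1 of the 5 tested was called higher and none lower. Macrophage markers (5 genes) summed to 0.86 and 6.85 TPM, with *Csf1r* and *C1qa* at 0 in both PRC1ctrl libraries, against 12.6 and 25.1 TPM, and none of the 2 tested was called. Sertoli cell markers (10 genes) summed to 22.7 and 57.6 TPM against 44.1 and 56.5 TPM, with *Amh* at 0 in both PRC1cKO libraries, and 4 peritubular myoid markers summed to 3.01 and 0.99 against 0.88 and 3.78 TPM. *Adh1*, an alcohol dehydrogenase that oxidizes retinol, was 2.86 and 0.56 TPM against 9.74 and 12.7 TPM. The part of these cells in the values was not tested.

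**Figure D4:**
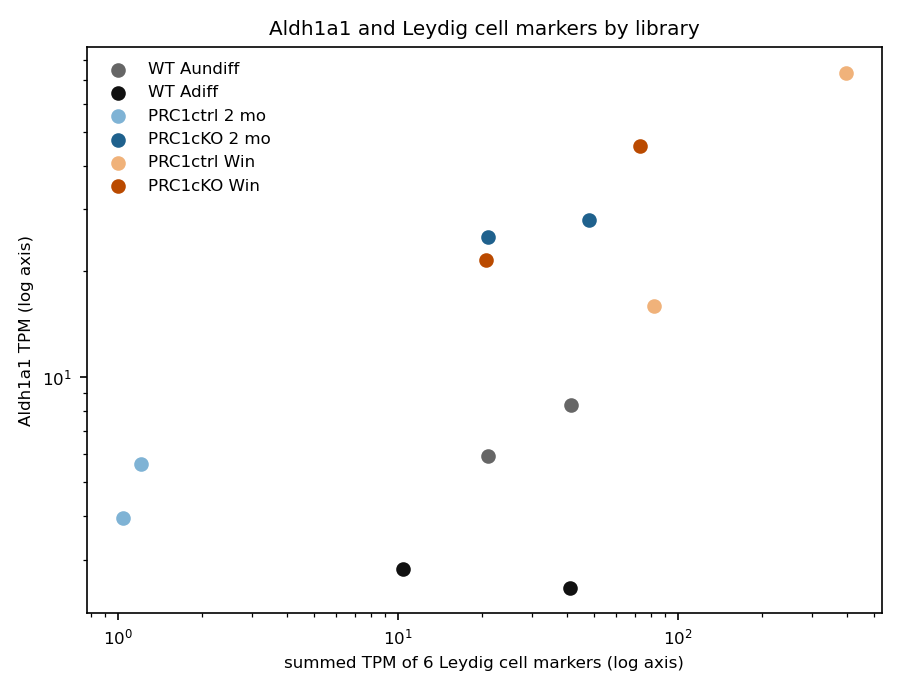
Aldh1a1 TPM against the summed TPM of 6 Leydig cell markers in the 12 libraries, both on log axes, with a colour for each group. In 5 of the 6 groups the library with the higher Leydig sum also has the higher Aldh1a1, and the highest point for both is a Win18446 library labelled PRC1ctrl (73.6 TPM against 397 TPM). Sums of Sertoli cell and macrophage markers rank the 2 libraries of every group as the Leydig sum does, so this pattern is not particular to Leydig cells.

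After Win18446 *Crabp1* and *Cyp26b1* were higher and *Rarg*, *Rdh10* and *Stra8* lower under the PRC1cKO label at an adjusted p under 0.05, each by less than 1 on the log2 scale. None of the 10 genes was called by limma, where 1.27% of 16521 genes were called higher and 10.9% lower. At an adjusted p under 0.05 without the fold threshold, 2 of the 10 were higher and 3 lower, against 5.87% and 26.7% of all genes, and 6 of the 10 had an unadjusted p under 0.05, as did 44.3% of all genes. The libraries did not overlap for 2 genes that were higher and 6 that were lower (20.1% and 49.3% of all genes). The median log2 fold change of the 10 genes was -0.22, close to the -0.19 of all genes.

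*Crabp1* was 146 and 172 TPM under the PRC1ctrl label and 228 and 273 TPM under the PRC1cKO label, a log2 fold change of 0.65 ± 0.14 (adjusted p = 0.0138). *Cyp26b1* was 1.99 and 1.50 TPM against 4.42 and 3.81 TPM, a log2 fold change of 0.90 ± 0.19 (adjusted p = 0.0138). It was called without PRC1ctrl replicate 1 (1.03, adjusted p = 0.0271), with a pseudocount of 0.1 (1.20) and after median-of-ratios scaling (1.08). Both genes still lay below their WT Adiff levels in every library.

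*Stra8* was 10.7 and 12.4 TPM under PRC1ctrl and 7.91 and 7.90 TPM under PRC1cKO. All 4 values were far below those of WT Aundiff, and the log2 fold change was -0.50 ± 0.15 (adjusted p = 0.0460). *Rarg* was 83.1 and 96.1 TPM against 53.2 and 59.4 TPM (-0.66 ± 0.13, adjusted p = 0.0104), and *Rdh10* was 6.24 and 7.12 TPM against 3.77 and 3.23 TPM (-0.77 ± 0.17, adjusted p = 0.0161). *Rara* was 41.1 and 53.8 TPM against 27.3 and 37.0 TPM without passing the test (-0.55 ± 0.20, adjusted p = 0.0759).

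*Aldh1a2*, the enzyme that Win18446 is used to block, was 50.7 and 48.0 TPM against 42.1 and 45.9 TPM (log2 fold change -0.16 ± 0.12, adjusted p = 0.323). *Crabp2* was 4.59 and 4.53 TPM against 3.37 and 3.89 TPM (adjusted p = 0.268). *Dhrs3* was 3.55 and 2.57 TPM against 3.49 and 5.65 TPM, with overlap. *Aldh1a1* had the widest spread, 73.6 and 15.9 TPM against 45.5 and 21.6 TPM, and its log2 fold change of -0.13 ± 1.09 became 0.94 without PRC1ctrl replicate 1 and 0.39 without PRC1cKO replicate 2. Leydig cell markers summed to 397 and 82.1 TPM against 73.2 and 20.6 TPM in the same libraries, and no gene of that list was called out of 5 tested. Sums for Sertoli cell markers were 211 and 126 TPM against 228 and 134 TPM, for macrophages 32.5 and 21.1 against 19.7 and 16.0 TPM, and for peritubular myoid cells 36.4 and 20.3 against 32.2 and 22.1 TPM.

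PRC1ctrl Aundiff after Win18446 were also set against WT Aundiff, which were made with the same kit but differ in treatment, *Ring1*, Cre with a floxed *Rnf2* allele, strain and age range, so these cannot be told apart. *Stra8* was called lower, at 10.7 and 12.4 TPM against 66.2 and 53.2 TPM, a log2 fold change of -2.27 ± 0.16 (adjusted p = 0.00141). Without PRC1ctrl Win18446 replicate 2 the fold change was -2.36 and the adjusted p 0.0573. *Rdh10* was the single gene called higher, at 6.24 and 7.12 TPM against 2.27 and 2.04 TPM (log2 fold change 1.28 ± 0.20, adjusted p = 0.00587). Its call was lost without either PRC1ctrl library (adjusted p = 0.0568 and 0.0773). Of the 16602 genes tested, 16.4% were called higher and 3.17% lower.

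In the same comparison *Aldh1a2* (log2 fold change 0.95 ± 0.12, adjusted p = 0.00390), *Crabp2* (0.88 ± 0.24, adjusted p = 0.0303) and *Rarg* (0.42 ± 0.14, adjusted p = 0.0491) passed the test below the fold threshold. In all, 4 of the 10 genes were higher and 1 lower at an adjusted p under 0.05, against 33.9% and 8.6% of all genes. *Aldh1a2* was called without WT Aundiff replicate 1 (1.00, adjusted p = 0.0199), and *Crabp2* without WT Aundiff replicate 2 (1.11, adjusted p = 0.0281). *Rara*, with a log2 fold change of 0.70 (adjusted p = 0.0601), was also called without that library (1.00, adjusted p = 0.0312). *Aldh1a1* was 73.6 and 15.9 TPM against 5.93 and 8.31 TPM (2.14 ± 0.84, adjusted p = 0.130), and was called only in the model over all 12 libraries (adjusted p = 0.0255). *Crabp1* (0.09 ± 0.12), *Cyp26b1* (-0.01 ± 0.28) and *Dhrs3* (-0.54 ± 0.23) did not pass, and the first 2 changed sign with the processing.

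Somatic markers were higher in these PRC1ctrl libraries. Sums were 211 and 126 TPM against 56.4 and 63.2 TPM for Sertoli cells (3 of 8 tested called higher), 397 and 82.1 against 21.0 and 41.5 TPM for Leydig cells (1 of 5) and 32.5 and 21.1 against 9.71 and 11.4 TPM for macrophages (2 of 3). For peritubular myoid cells the sums overlapped, at 36.4 and 20.3 against 5.96 and 44.1 TPM. Their part in the levels of *Rdh10*, *Aldh1a1* and *Aldh1a2* was not tested.

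Across the 6 groups the 10 genes did not share an order, and the place of the 2 mo groups in it also carries the kit. *Stra8* was ordered WT Adiff, PRC1cKO 2 mo, PRC1ctrl 2 mo, WT Aundiff, PRC1ctrl after Win18446 and PRC1cKO after Win18446, and no neighbours in this order overlapped. *Crabp1* was also highest in WT Adiff, with PRC1cKO after Win18446 next (250.3 ± 31.4 TPM) and PRC1ctrl at 2 mo lowest. Its middle groups, PRC1ctrl after Win18446, WT Aundiff and PRC1cKO at 2 mo, overlapped each with the next. *Cyp26b1* and *Crabp2* were highest in WT Adiff as well, whereas *Aldh1a1*, *Aldh1a2*, *Rdh10*, *Rara* and *Rarg* had their highest means in PRC1ctrl after Win18446. For *Aldh1a1* the highest 3 groups, PRC1ctrl and PRC1cKO after Win18446 and PRC1cKO at 2 mo, overlapped.

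Whether the PRC1cKO label had another effect after Win18446 than at 2 mo was tested as an interaction, in which kit and treatment change together. None of the 10 genes passed (limma), with 4 at an unadjusted p under 0.05 (24.7% of all genes), where 2.76% of 18354 genes were called positive and 4.98% negative. *Stra8* came closest, with an interaction of -1.71 ± 0.44 on the log2 scale (adjusted p = 0.0639). Without PRC1ctrl 2 mo replicate 1 the *Stra8* interaction was -2.10. It passed in the limma model over all 12 libraries (adjusted p = 0.0228), which pools the spread of both kits. *Rarg* (-1.20 ± 0.48, adjusted p = 0.182) and *Aldh1a1* (-2.39 ± 0.97, adjusted p = 0.191) did not pass.

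Other genes of the pathway (39 in the list) were tested beside the 10. In WT, 8 of 28 tested were called higher in Adiff and 1 lower, against 11.1% and 9.24% of all genes tested. The 8 include *Kit*, on whose protein the cells were sorted. *Rbp4*, the plasma carrier of retinol, rose from 18.5 and 19.8 TPM to 60.9 and 81.5 TPM (log2 fold change 1.83, adjusted p = 0.00166). *Rbp7* fell from 4.71 and 4.99 TPM to 0.48 and 0.69 TPM (log2 fold change -1.89, adjusted p = 0.00371). The receptor *Rarb* (0.65 and 0.05 TPM in Aundiff, 3.42 and 2.41 TPM in Adiff), the corepressor *Ncor1* and the coregulator *Nrip1* rose, with log2 fold changes of 1.56, 1.27 and 1.42. Of 6 other germline response genes, *Kit* (5.01), *Rec8*, a meiotic cohesin (1.44), and *Sohlh2*, a transcription factor of differentiating spermatogonia (1.01), were called higher. *Kit* was part of the sort gate and is no finding.

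At 2 mo none of 25 tested pathway genes was called by limma, against 0.222% of all genes called higher and 1.94% lower. After Win18446, 2 of 29 were called higher under the PRC1cKO label and 1 lower, against 1.27% and 10.9% of all genes tested. *Fabp5*, a fatty acid-binding protein that also carries retinoic acid, was 14.1 and 12.5 TPM against 31.3 and 29.7 TPM (log2 fold change 1.14, adjusted p = 0.00278). *Kit* was 6.48 and 8.15 TPM against 20.4 and 22.0 TPM (1.42, adjusted p = 0.00263). *Ncor1* was 91.2 and 85.8 TPM against 29.3 and 39.6 TPM (-1.35, adjusted p = 0.00281), and it was the single gene of the list called in the interaction (-1.34, adjusted p = 0.0466). At 2 mo *Fabp5* was 9.55 and 8.31 TPM against 29.4 and 24.6 TPM (1.49, adjusted p = 0.128). *Kit* was 1.64 and 3.30 TPM against 10.7 and 14.9 TPM there (2.02, adjusted p = 0.113), so both were higher without being called. *Ncor1* did not differ there (-0.01).

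For PRC1ctrl after Win18446 against WT Aundiff, 4 of 31 pathway genes were called higher and 2 lower, where 16.4% and 3.17% of all genes were, so these counts are near the rates over all genes. The lower genes were *Cyp26a1*, another enzyme that degrades retinoic acid, at 0.08 and 0.26 TPM against 2.13 and 2.92 TPM (log2 fold change -1.59, adjusted p = 0.00469), and *Aldh1a3*, another enzyme that makes retinoic acid, at 2.45 and 2.39 TPM against 6.02 and 7.29 TPM (-1.16, adjusted p = 0.00788). Among the higher genes were the coregulators *Ncor1* (1.43) and *Ncoa1* (1.09) and *Gm4969*, also known as *Meiosin*, which encodes a partner of STRA8, at 10.4 and 13.3 TPM against 3.30 and 3.34 TPM (1.56, adjusted p = 0.00362).

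Among the genes most like *Stra8* over the 12 libraries, by Pearson's r of log2(TPM + 1) among 11705 genes with at least 10 TPM in a library, were *Lgals1* (0.960), *Romo1* (0.950), *Rex1bd* (0.942) and *Nasp* (0.941). Over the 8 TruSeq libraries alone their r with *Stra8* was 0.979, 0.962, 0.946 and 0.955. Those most like *Crabp1* were *Letmd1* (0.986), *Loxl2* (0.975), *Uba2* (0.974), *Lrp8* (0.973) and *Ccdc115* (0.971), with 0.980, 0.950, 0.948, 0.981 and 0.969 over the TruSeq libraries. The points share groups, kits and depth, and the values are descriptions.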

How the data were processed

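RNA-seq of 12 libraries was used. The deposited values are TPM per gene, which the authors computed with RSEM 1.3.3 per their methods, after trimming with Trim Galore 0.6.6. HISAT2 2.2.1 is named for alignment, and whether RSEM used those alignments is not given in the sources used here. Of 55385 genes, 55144 were found in Gencode vM21 (GRCm38). None of the 10 genes shared exonic bases with another annotated gene. TPM has the same total in every library, which makes the values relative to each other, and counting error is unknown.

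Values were taken as log2(TPM + 1), which compresses changes of low genes. Genes with at least 1 TPM in at least 2 of the libraries compared were tested with limma 3.58.1 in R 4.3.3 (trend and robust options, two-sided, Benjamini-Hochberg), over the groups compared, or over the 8 PRC1 libraries for the interaction. With 2 libraries against 2, an exact permutation test cannot go below p = 0.33, so p-values rest on variances pooled across genes. Replicates are independent pools of cells.

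All 10 genes are named. Other pathway genes are named when called, and for *Stra8* and *Crabp1* the 5 genes with the highest Pearson's r. Some of these genes enter the counts and are not reported here by name. Genes named to describe other patterns (*Rxra*, *Rxrb*, *Adh1*, *Zbtb16*) were chosen after their values were seen. So were the markers *Sohlh1*, *Dmrtb1*, *Esx1*, *Tcea3*, *Sycp1*, *Sycp3*, *Hormad1*, *Ldhc* and *Piwil1*. The genes and lists were chosen with earlier results of these data known. Alternatives were a pseudocount of 0.1, no filter, a mean of at least 5 TPM, median-of-ratios scaling, the replicate number as a block, all 12 libraries in a model, each library left out, and, added after seeing the data, a GC correction with and without the block. Tables used pandas 2.3.3 in Python 3.11.15, and figures matplotlib 3.10.9.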

Additional observations from a re-analysis of the deposited data

Results flagged for a closer look

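For 3 of the 7 genes tested at 2 mo, both PRC1cKO libraries were higher than both PRC1ctrl libraries there and both were lower after Win18446. Of all genes tested, 27.5% were higher without overlap at 2 mo and 49.3% were lower without overlap after Win18446. The share of all genes with both was not computed. The log2 fold changes were 1.22 and -0.50 for *Stra8*, 0.86 and -0.16 for *Aldh1a2* and 0.53 and -0.27 for *Crabp2*. The *Aldh1a2* value after Win18446 turned to 0.075 after median-of-ratios scaling, and the median over all genes there was -0.19. The interaction did not pass for any of them (adjusted p = 0.0639, 0.206 and 0.223), so a difference between the settings was not shown, and kit and treatment cannot be told apart in it.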

How the results depend on the processing

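With 2 libraries a group and no read counts, small differences could not be resolved. Leaving out a library moved the counts of genes called higher and lower to 972 to 1734 and 818 to 1508 in WT, 0 to 10 and 0 to 40 at 2 mo, 125 to 281 and 1040 to 2027 after Win18446, 5 to 2962 and 5 to 560 for PRC1ctrl after Win18446 against WT Aundiff, and 19 to 825 and 7 to 1575 in the interaction. Among the 10 genes the calls then ranged from 3 to 4 higher and 0 to 1 lower in WT, 0 to 0 at 2 mo, 0 to 1 higher after Win18446, 0 to 3 higher and 0 to 1 lower against WT Aundiff, and 0 to 1 lower in the interaction.

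The labels of same-numbered libraries share only a number. At 2 mo these libraries also shared a shift. Genes over 54% GC were higher in replicate 2, by a median log2 of 0.68 under PRC1ctrl and 0.66 under PRC1cKO, against 0.16 to 0.23 in the other groups. Deviations of same-numbered libraries from the group means correlated at 0.158 in WT, 0.381 at 2 mo, 0.122 after Win18446 and 0.0746 against WT Aundiff. When the replicate number was fitted as a block, 1074 genes were called higher and 1098 lower at 2 mo, against 31 and 270 without it. The block called 4 of the 10 genes higher there: *Aldh1a1* (adjusted p = 3.84e-05), *Crabp1* (0.000176), *Stra8* (0.000261) and *Dhrs3* (0.000308). With a GC correction as well, the block gave 869 and 1044 genes and the same 4 genes.

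At 2 mo the genes called higher and lower were 84 and 833 after median-of-ratios scaling (1 of the 10 genes, *Aldh1a1*, adjusted p = 0.0168), 662 and 1049 over all 12 libraries (3 of the 10), 6 and 90 with a mean of at least 5 TPM and 0 and 0 with no filter. A pseudocount of 0.1 gave 406 lower, and the GC correction called 1 of the 10 genes, *Aldh1a1* (adjusted p = 0.0425). In WT a mean of at least 5 TPM gave 869 genes lower, and under it and over all 12 libraries 0 of the 10 were lower (*Aldh1a1* adjusted p = 0.185 over all 12). Scaling turned the WT split from 1724 higher and 1430 lower to 1166 and 1750.

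After Win18446 the genes called higher were 381 with a pseudocount of 0.1 and 374 after scaling (1249 lower, against 210 and 1807 without it), each with 1 of the 10 genes, *Cyp26b1*. A mean of at least 5 TPM gave 104 and 851. Against WT Aundiff the counts were 1420 and 244 with a mean of at least 5 TPM (0 of the 10 higher) and 1681 and 917 after scaling, against 2727 and 527. There 2 of the 10 were called higher with a pseudocount of 0.1, over all 12 libraries, and with the GC correction, with or without the block. The interaction counts of 506 positive and 914 negative became 226 and 243 with a pseudocount of 0.1, 334 and 453 with no filter, 90 and 86 with a mean of at least 5 TPM and 868 and 300 after scaling. Over all 12 libraries 1494 were negative, among them 1 of the 10 genes, *Stra8*.

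The log2 fold change changed sign for *Rara* in WT (-0.080 after scaling, -0.11 with the GC correction, with or without the block), for *Aldh1a1* (0.10) and *Aldh1a2* (0.075) after Win18446 with scaling, and against WT Aundiff for *Crabp1* (-0.25 after scaling) and *Cyp26b1* (0.0038 with a pseudocount of 0.1, 0.062 with the GC correction, with or without the block). Without a library it ranged from -0.22 to 0.39 for *Rara* in WT, -0.14 to 0.053 for *Rdh10* at 2 mo and -1.20 to 0.94 for *Aldh1a1* after Win18446. Against WT Aundiff it ranged from -0.32 to 0.30 for *Cyp26b1* and -0.022 to 0.21 for *Crabp1*. None of these was called before or after. The cause was not tested for any of these changes.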
